A study of Mus musculus with 18 samples.

Results

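Penk, Spock2, Ptpn13 and Smco4 are 4 of the 55487 genes in the deposited tables. They were chosen by their TPM values in an earlier analysis of the same libraries, as genes whose transcript level was below that of each of 5 organs in blood. That choice used the blood values, so the low level in blood is given below as a description with no test. The choice also required a minimum mean level in each organ, and every blood library below every library of each organ. It ranked genes by their smallest difference from blood over the organs, so it favoured genes that stayed high in every organ. The contrasts between organs were not used in the choice, and these were tested.

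The study compared regulatory T (Treg) cells, the CD4+Foxp3+ T cells that restrain immune responses, freshly sorted from 6 sites of the mouse by RNA sequencing. The sites were peripheral blood, bone marrow, spleen, lymph node, lung and liver, with 3 libraries from each and 18 in all. Every group carried the label wild-type and received no treatment, and the series text names CD4 and Foxp3 as what defined the cells. The labels used here give no age, sex, reporter allele or sorting gate, and they do not say whether the 3 libraries of a site came from separate mice or sorts, so the p-values below measure only the spread between these libraries.

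Penk encodes proenkephalin, a secreted precursor that proteases cut into the opioid peptides Met-enkephalin and Leu-enkephalin. These peptides act on delta and mu opioid receptors, which are best known from neurons, and peptidases at the cell surface and in the cytosol then degrade them. Penk transcripts are also known from Treg cells. Spock2 encodes a testican, a secreted proteoglycan of the SPARC family with glycosaminoglycan chains. Ptpn13 encodes a large non-receptor protein tyrosine phosphatase with PDZ domains. Its human form has been reported to bind the death receptor Fas, and binding in mouse cells was not examined here. Smco4 encodes a small membrane protein with a coiled coil.

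The members lie on 4 different chromosomes in the GENCODE M21 annotation of GRCm38. Penk (ENSMUSG00000045573) lies at chr4:4133531-4138819 on the minus strand, and its longest coding transcript has 2 exons and 1449 bases. It overlaps the antisense gene A830012C17Rik, whose level was at most 4.33 TPM in any library and at most 0.12 TPM in blood. The kit kept strand, but the strand setting used for counting is not given in the sources used here, so reads of the overlap could have been assigned to either gene. Spock2 (ENSMUSG00000058297) lies at chr10:60106219-60135198 on the plus strand, and its longest coding transcript has 11 exons and 5238 bases. Ptpn13 (ENSMUSG00000034573) lies at chr5:103425192-103598303 on the plus strand, and its coding transcript has 48 exons and 7915 bases. Smco4 (ENSMUSG00000058173) lies at chr9:15493432-15545260 on the plus strand, and its longest coding transcript has 3 exons and 994 bases.

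Promoter windows, from 250 bases before to 50 after an annotated start, are shown for Spock2, Ptpn13 and Smco4. The set of windows used held none for Penk, so no motif was searched in Penk. The sequences are from RefSeq on GRCm38.p6 and are written 5′ to 3′ on the strand of the gene, with matches to searched motifs in capitals. Smco4 has 2 windows, for 2 annotated starts.
Spock2, chr10:60106007-60106306: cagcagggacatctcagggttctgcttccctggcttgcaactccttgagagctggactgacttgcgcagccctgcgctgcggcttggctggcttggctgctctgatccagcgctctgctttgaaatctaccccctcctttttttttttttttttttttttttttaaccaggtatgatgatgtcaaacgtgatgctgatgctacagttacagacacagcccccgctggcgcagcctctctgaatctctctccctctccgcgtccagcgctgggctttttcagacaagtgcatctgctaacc
Ptpn13, chr5:103424942-103425241: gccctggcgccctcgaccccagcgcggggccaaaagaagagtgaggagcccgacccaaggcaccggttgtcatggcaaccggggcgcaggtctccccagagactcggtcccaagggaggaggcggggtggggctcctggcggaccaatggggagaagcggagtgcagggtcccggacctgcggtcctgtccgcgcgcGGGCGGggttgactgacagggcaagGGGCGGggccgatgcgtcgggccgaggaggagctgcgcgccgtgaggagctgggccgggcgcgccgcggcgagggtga
Smco4, first window, chr9:15493182-15493481: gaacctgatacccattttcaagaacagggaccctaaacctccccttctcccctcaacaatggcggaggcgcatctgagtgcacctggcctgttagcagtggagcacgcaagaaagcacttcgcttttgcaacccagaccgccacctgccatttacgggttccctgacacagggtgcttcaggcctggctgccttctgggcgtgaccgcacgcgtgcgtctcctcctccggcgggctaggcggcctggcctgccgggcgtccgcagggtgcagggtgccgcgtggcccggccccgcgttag
Smco4, second window, chr9:15504968-15505267: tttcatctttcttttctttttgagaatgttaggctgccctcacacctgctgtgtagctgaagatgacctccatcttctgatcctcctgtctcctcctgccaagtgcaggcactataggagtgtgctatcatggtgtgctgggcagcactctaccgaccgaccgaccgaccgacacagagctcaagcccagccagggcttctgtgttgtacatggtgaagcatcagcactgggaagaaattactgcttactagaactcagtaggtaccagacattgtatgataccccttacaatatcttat
Of the 9 motifs searched on both strands, the only matches in these windows were 2 copies of the Sp1 motif GGGCGG in Ptpn13, which begin 53 and 28 bases before the start. That motif is in 35.7% of the 32851 windows in the RefSeq table. The other 8 motifs are in 5.2% (AP-1, TGACTCA), 2.12% (ENKCRE-2, TGCGTCA), 20.8% (CRE core, CGTCA), 3.65% (forkhead, TGTTTAC), 5.27% (Runx, TGTGGTT), 14.9% (ETS, CCGGAA), 4.72% (Nr4a, AAGGTCA) and 13.6% (TATA box, TATAAA) of the windows. The CRE core letters are part of ENKCRE-2. The share of G and C was 74.0% in the Ptpn13 window, 64.7% and 48.7% in the Smco4 windows and 52.3% in the Spock2 window, beside a median of 52.7% over all windows.

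Values are in TPM, a length-adjusted share of all transcripts in a library, so RNA of other cells lowers every T cell gene. The libraries of blood and bone marrow stood apart in myeloid RNA. The summed level of 14 myeloid marker genes was 27550 to 28310 TPM in blood and 39930 to 40210 TPM in bone marrow, and 50.84 to 1739 TPM in the other 12 libraries. Blood also had 2209 to 2244 TPM of 7 platelet genes, where no organ library exceeded 82.77 TPM. Erythroid RNA had another order, with liver highest. The mean sum of 7 erythroid genes was 11470 TPM in liver, 6467 in bone marrow and 2928 in blood. It was 1932 TPM in spleen, 1468 in lung and 74.45 in lymph node. The 20 T cell genes, all of which were above 1 TPM in every group, summed to 3267 to 3359 TPM in blood and 5006 to 7801 TPM in the organs. Foxp3, the defining factor of Treg cells, was at 88.65 ± 3.39 TPM in blood (SD, n = 3) and at 139.7 to 238.5 TPM as group means in the organs. A lower TPM in such libraries can reflect fewer cells with the transcript or less of it per cell, and these cannot be told apart. On depth, 1 read per kilobase was worth 0.0825 TPM in blood and between 0.0877 TPM in lymph node and 0.378 TPM in liver, as group means. Low levels were therefore measured with the finest step in blood.

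Penk, the opioid peptide precursor, had the widest range of the 4 genes. It was at 98.75, 114.95 and 96.81 TPM in spleen and at 96.16, 84.94 and 94.03 TPM in liver. Lymph node libraries had 48.86, 49.76 and 53.66 TPM. Lung libraries had 29.1, 18.18 and 22.32 TPM. Spleen and liver were the sites of highest level and their libraries adjoined, from 96.16 TPM in liver to 96.81 TPM in spleen, while lymph node stood between them and lung with no overlap on either side. In bone marrow Penk was at 10.95, 10.62 and 12.21 TPM, and in blood at 2.25, 1.48 and 2.4 TPM. Every bone marrow library was below every lung library, and every blood library was below every bone marrow library. The 3 blood values correspond to 24.7 ± 5.58 reads per kilobase of transcript (SD, n = 3), so the low level there was measured and was not a missing value.

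Spock2, the testican gene, had a flat profile over the organs in TPM. Its values were 18.21, 18.47 and 19.61 TPM in spleen, 18.65, 20.14 and 21.61 TPM in lymph node and 17.58, 15.24 and 17.08 TPM in liver. They were 21.8, 20.12 and 28.89 TPM in lung and 19.85, 16.72 and 17.36 TPM in bone marrow. Lung was highest on average, with 1 library at 28.89 TPM, and its other libraries were close to those of lymph node. In blood Spock2 was at 2.45, 2.25 and 2.42 TPM, far below the lowest organ library.

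Ptpn13, the phosphatase gene, was also nearly level over the organs. Its values were 13.0, 14.67 and 15.7 TPM in spleen, 14.27, 13.06 and 13.56 TPM in lymph node and 18.03, 15.47 and 15.2 TPM in liver. They were 20.33, 20.33 and 19.91 TPM in lung and 14.95, 16.08 and 14.68 TPM in bone marrow. All lung libraries were above every library of the other organs, and all lymph node libraries were below those of liver and bone marrow. Blood libraries had 3.22, 3.09 and 3.28 TPM.

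Smco4, the coiled-coil membrane protein gene, varied more between the libraries of spleen, liver and lung than the other members did. It was at 65.18, 48.81 and 57.95 TPM in spleen, 46.92, 48.76 and 46.72 TPM in lymph node and 34.4, 40.92 and 50.07 TPM in liver. It was at 82.53, 60.9 and 46.56 TPM in lung and 35.24, 32.73 and 35.95 TPM in bone marrow. Lung values spanned those of spleen and lymph node and reached into the liver range, while bone marrow lay at the low end. Blood libraries had 7.74, 10.96 and 10.6 TPM, again below every organ library.

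**Figure D1:**
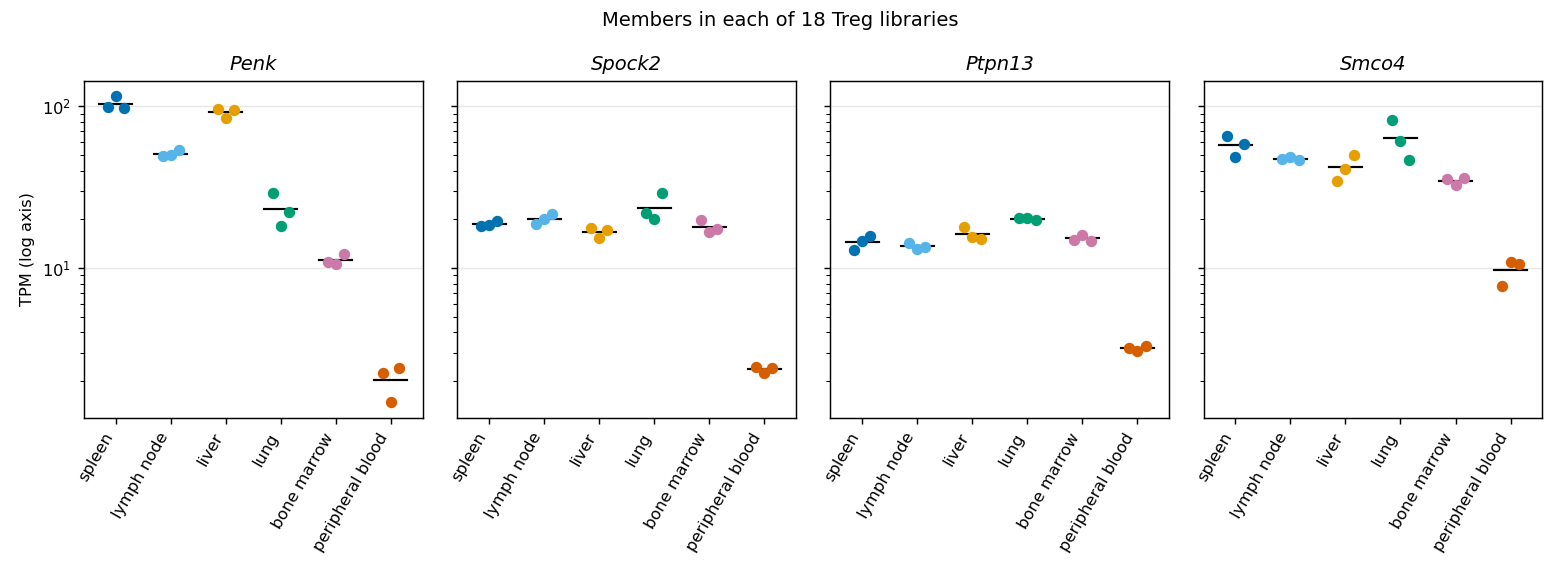
TPM on a log axis of Penk, Spock2, Ptpn13 and Smco4 in each of the 18 libraries by site, with points for libraries and a black line for the mean of 3. Penk steps down from spleen and liver to bone marrow and blood. Organ means span 1.42-fold for Spock2, 1.48-fold for Ptpn13 and 1.83-fold for Smco4, and all are low in blood.

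The blood level set the choice of the 4 genes, and its distance from the organs differed from gene to gene. The mean Penk level in an organ was 50.7 times that of blood in spleen, 44.9 times in liver, 24.8 times in lymph node, 11.4 times in lung and 5.51 times in bone marrow. For Spock2 the ratio ran from 7.01 in liver to 9.95 in lung, for Ptpn13 from 4.26 in lymph node to 6.32 in lung, and for Smco4 from 3.55 in bone marrow to 6.48 in lung. On the log2(TPM + 1) scale, on which the fits were made and which understates the change of low genes, the difference of blood from an organ lay between -5.11 and -2.02 for Penk. It lay between -2.85 and -2.38 for Spock2, between -2.34 and -1.80 for Ptpn13 and between -2.55 and -1.74 for Smco4. All 3 blood libraries were below all 15 organ libraries for each member, as the choice required. This pattern was found for 4.79% of the 16694 genes tested. A gene was called lower in blood where limma gave an adjusted p under 0.05, and this was so for 15.3% of genes against spleen, 21.0% against lymph node, 16.1% against liver, 17.3% against lung and 18.8% against bone marrow. The corresponding shares called higher in blood were 20.1%, 16.4%, 23.3%, 26.4% and 13.0%. Calls of lower in blood against all 5 organs were made for 3.44% of genes.

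The earlier ranking took genes called lower in blood against all organs, with at least 10 TPM on average in each organ and no overlapping libraries. Genes without a symbol, predicted genes and antigen receptor segments were left out. The 426 genes that remained were ordered by the smallest size of their log2 difference over the 5 organs. The first 10 genes were Ccr8, Rgs16, Tigit, Pdcd1, Spock2, Penk, Maf, Ptpn13, Cish and Smco4. Smco4, the last inside, had a smallest difference of 1.74 in size, and Ptpn13 had 1.80. Tnfsf11 and Cdk1, the first outside, had 1.71 each, so the edge of the list separates genes with nearly the same value.

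Set against Foxp3 in the same library, each member remained lower in blood on average than in every organ, by smaller ratios. Penk was at 74.0% of the Foxp3 TPM in spleen, 62.0% in liver, 21.3% in lymph node, 10.1% in lung, 7.64% in bone marrow and 2.3% in blood. The organ mean was 3.32 to 32.2 times the blood mean for Penk on this scale, 3.15 to 5.02 times for Spock2, 1.58 to 3.02 times for Ptpn13, and 1.81 to 3.77 times for Smco4. With each library scaled to its T cell genes, the ratios were 3.97 to 27.4 for Penk, 3.6 to 6.27 for Spock2, 1.96 to 3.99 for Ptpn13 and 2.19 to 4.11 for Smco4. The closest approach of blood to an organ was that of Ptpn13 to lymph node on both scales. The percentile of Penk among genes of at least 1 TPM was 91.9 in spleen, 48.5 in bone marrow and 26.8 in blood. The corresponding percentiles in blood were 28.9 for Spock2, 32.6 for Ptpn13 and 47.7 for Smco4, beside 57.6 or more, 54.2 or more and 72.1 or more in the organs. The myeloid and platelet RNA given above was highest in blood and bone marrow, the 2 sites where Penk was lowest, and its part in the blood values was not tested beyond these scales.

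**Figure D2:**
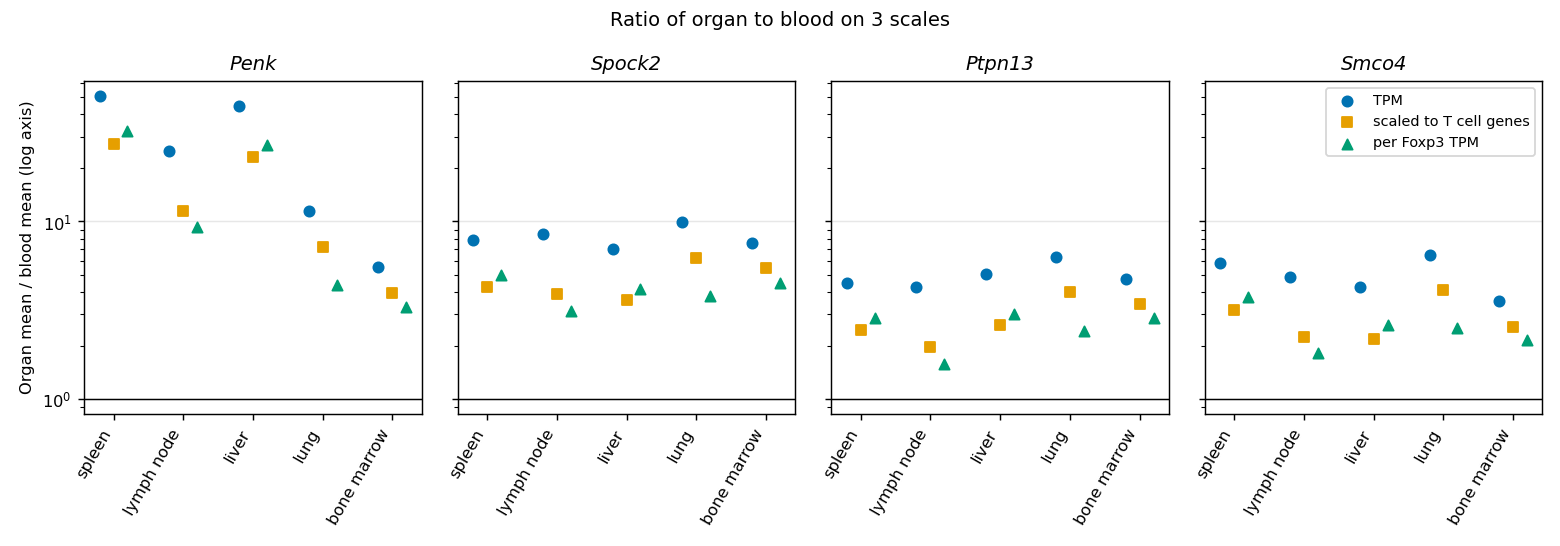
Ratio of the organ mean to the blood mean on a log axis for each member and organ, from TPM (circles), TPM scaled to the T cell genes (squares) and TPM per Foxp3 TPM (triangles), with a line at equal levels. Every point is above the line, and the lowest is Ptpn13 in lymph node per Foxp3 TPM, at 1.58.

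Among the 5 organs, Penk differed beyond the spread between libraries in 9 of the 10 pairs of organs. Its range of 9.19-fold from bone marrow to spleen was matched or exceeded by 7.45% of the 9934 genes that reached 10 TPM in an organ. The members had to reach 10 TPM in all 5 organs, while these genes needed it in any organ. The choice thus limited how low a member could lie in any organ, so the shares of organ range here and below are descriptions. The F test over the organs gave an adjusted p of 3.27e-10 for Penk, 0.00748 for Smco4 and 0.00768 for Ptpn13, by limma with Benjamini-Hochberg adjustment over all genes tested. Spock2 was not called, with an adjusted p of 0.0598. This F test called 62.5% of the genes tested, so 3 called of 4 members is near the background. Over the pairs, at least 9 calls of 10 were made for 3.07% of genes, and 31.9% of all gene-by-pair tests were called. All 4 members together had 17 calls of 40 (42.5%), of which Penk had 9. The 8 calls of 30 for Spock2, Ptpn13 and Smco4 (26.7%) are near the 31.9% of all tests.

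The order of the Penk means was 103.5 ± 9.96 TPM in spleen, 91.71 ± 5.96 in liver, 50.76 ± 2.55 in lymph node, 23.2 ± 5.51 in lung and 11.26 ± 0.839 in bone marrow (SD, n = 3 each). The neighbours spleen and liver did not differ beyond their spread, with a difference of 0.17 on the log2(TPM + 1) scale, a 95% interval from -0.16 to 0.5 and an adjusted p of 0.445. That interval leaves room for a difference of up to 0.5 with spleen higher, and for a smaller one with liver higher. All other neighbours in the order differed. Lymph node was below liver by a difference of -0.84 (adjusted p = 0.000677), and above lung by 1.12 (adjusted p = 2.45e-05). Lung was above bone marrow by 0.96 (adjusted p = 0.000111). These 3 pairs were called for 31.1%, 42.3% and 43.5% of all genes. The widest pair, spleen against bone marrow, had a difference of 3.09 (adjusted p = 5.38e-10), in a pair where 24.1% of genes were called. Spleen and lymph node, both secondary lymphoid organs, differed by 1.01 with a standard error of 0.15 (adjusted p = 0.00034), in the pair with the lowest background, 14.3%. The remaining called pairs were spleen and lung (2.13, with 40.8% of genes called), lymph node and bone marrow (2.08, 22.5%), liver and lung (1.96, 34.9%) and liver and bone marrow (2.92, 34.5%), and the pair not called, spleen and liver, was called for 31.3% of genes. The same 9 Penk pairs were called under each of the 28 alternative settings, single-library omissions included, and the smallest called difference among them was 0.67, for lymph node against lung.

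Lung was the organ with the highest mean of Spock2, Ptpn13 and Smco4, at 23.6 ± 4.65, 20.19 ± 0.242 and 63.33 ± 18.1 TPM (SD, n = 3). Ptpn13 was higher in lung than in lymph node by 0.54 on the log2(TPM + 1) scale (adjusted p = 0.0016) and than in spleen by 0.46 (adjusted p = 0.00519). It was higher in lung than in bone marrow by 0.39 (adjusted p = 0.0144), a call lost without the third bone marrow library (0.36, adjusted p = 0.0515) and with scaling to the T cell genes (adjusted p = 0.182). Its organ range was 1.48-fold, and 83.6% of the genes that reached 10 TPM in an organ had a range at least as wide. No pair among spleen, lymph node, liver and bone marrow was called for Ptpn13 in TPM. With scaling to the T cell genes 7 pairs were called in place of 3, among them lymph node below bone marrow (-0.75, adjusted p = 0.000104) and below liver (-0.38, adjusted p = 0.0331). TMM scaling gave 5, among them lymph node below liver (-0.35, adjusted p = 0.0367).

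Smco4 was higher in lung than in bone marrow by 0.81 (adjusted p = 0.00222). Spleen was above bone marrow by 0.70 (adjusted p = 0.0114), a call lost without the first spleen library (0.61, adjusted p = 0.0549) and with scaling to the T cell genes (adjusted p = 0.223). The lung and liver libraries overlapped, and their call (-0.57 for liver minus lung, adjusted p = 0.0279) was lost without the first or second liver library or the first or second lung library, with adjusted p from 0.0556 to 0.138, and with library weights (adjusted p = 0.194). Other settings called further Smco4 pairs. Among them was lymph node below lung with scaling to the T cell genes (-0.82, adjusted p = 0.00255) and with TMM scaling (-0.58, adjusted p = 0.0243). The organ range of Smco4 was 1.83-fold, and 60.3% of genes had one at least as wide.

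Spock2 had 2 called pairs in TPM and neither held throughout. Lung was above liver by 0.47 (adjusted p = 0.0152), and without the third lung library, the one at 28.89 TPM, liver minus lung was -0.32 (adjusted p = 0.0679), and the call was also lost with library weights (adjusted p = 0.207). Lung was above bone marrow by 0.36 (adjusted p = 0.0438), a call lost on leaving out any 1 of 12 libraries, with adjusted p from 0.0511 to 0.197: each spleen, lymph node and blood library, the third lung library and the second or the third bone marrow library. It was also lost under 4 other settings, with the highest adjusted p, 0.327, on scaling to the T cell genes. That scaling called further Spock2 pairs. Lymph node and spleen were below lung (-0.64, adjusted p = 0.00209 and -0.51, adjusted p = 0.0099). Liver and lymph node were below bone marrow (-0.57, adjusted p = 0.00347 and -0.46, adjusted p = 0.0151). TMM scaling also called lymph node and spleen below lung (-0.40, adjusted p = 0.0272 and -0.36, adjusted p = 0.0452). The organ range of Spock2 was 1.42-fold, and 88.7% of genes had one at least as wide. Lung libraries also carried 222.5 to 297.4 TPM of 5 lung epithelial marker genes, against at most 14.2 TPM in any other library, and the part of such RNA in the lung values was not tested.

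**Figure D3:**
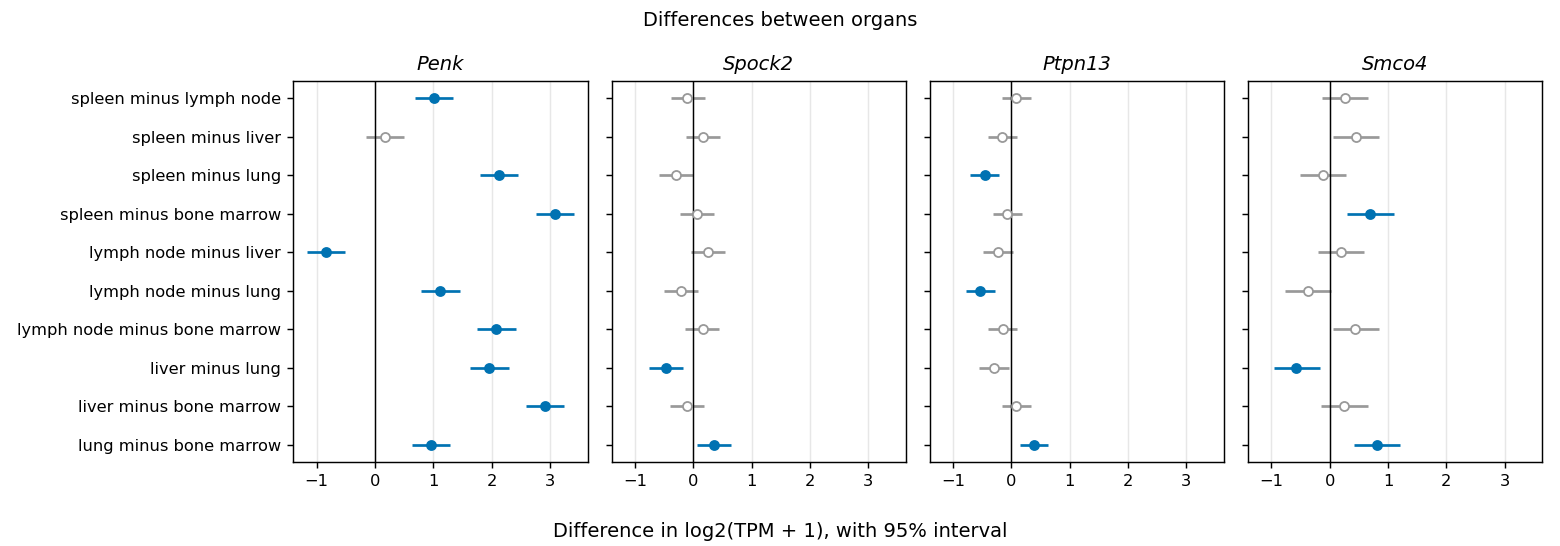
Difference in log2(TPM + 1) between the first and second named organ for each member, with 95% intervals from limma. Filled points passed an adjusted p of 0.05. Penk has 9 filled points and spans up to 3.09, while Ptpn13 and Smco4 have 3 and Spock2 has 2, all within 0.81 of zero.

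All 4 genes were chosen for a low level in blood, so a positive correlation over libraries that include blood is set by the choice. Over the 18 libraries, the Pearson correlation of log2(TPM + 1) was 0.97 between Spock2 and Ptpn13, 0.93 between Spock2 and Smco4 and 0.92 between Ptpn13 and Smco4. Over the 15 organ libraries the same pairs had 0.41, 0.34 and 0.22. Penk had 0.76 with Spock2, 0.73 with Ptpn13 and 0.80 with Smco4 over the 18 libraries, and -0.24, -0.31 and 0.30 over the organ libraries. These correlations are descriptions over libraries that share 6 sites and differ in their load of other cells' RNA.

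Likeness was computed for 9440 named genes that reached a group mean of 10 TPM, leaving out predicted genes named only by number and antigen receptor segments. Of these, Itgb8 had the pattern most like that of Penk, with a correlation of 0.97 over the 18 libraries and 0.948 over the 15 organ libraries. Itgb8 encodes an integrin beta chain that takes part in the activation of latent TGF-beta. It was at 11.01 TPM in spleen, 9.913 in lymph node, 10.17 in liver, 6.59 in lung, 4.693 in bone marrow and 1.3 in blood, as group means. Next was Rps27 (0.96 over all libraries, 0.922 over the organs), which encodes a protein of the small ribosomal subunit. The correlations of Penk with Itgb8 and Rps27 were thus also high within the organs. These 15 libraries were among the 18 used to pick the genes, so this is no separate check. Correlations of 0.9 or more with Penk were found for 37 genes, 0.392% of the candidates.

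For Spock2 the most alike genes were Ptpn13 (0.973 over the 18 libraries), H2-Q4 (0.97) and H2-K1 (0.962), the latter 2 being class I major histocompatibility genes. Over the organ libraries their correlations with Spock2 were 0.407, 0.349 and 0.113. For Ptpn13 they were H2-Q4 (0.98), Spock2 (0.973) and Tigit (0.961), an inhibitory receptor of T and natural killer cells, and over the organs Tigit kept 0.822 and H2-Q4 0.644. H2-Q4 and H2-K1 belong to a family of near-identical genes among which reads may be split unevenly, so their values are uncertain. For Smco4 they were Sdf4 (0.948), a calcium-binding protein of the Golgi, Ncl (0.94), which encodes nucleolin, and Spock2 (0.931). Over the organs Sdf4 had 0.707 and Ncl 0.755.

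**Figure D4:**
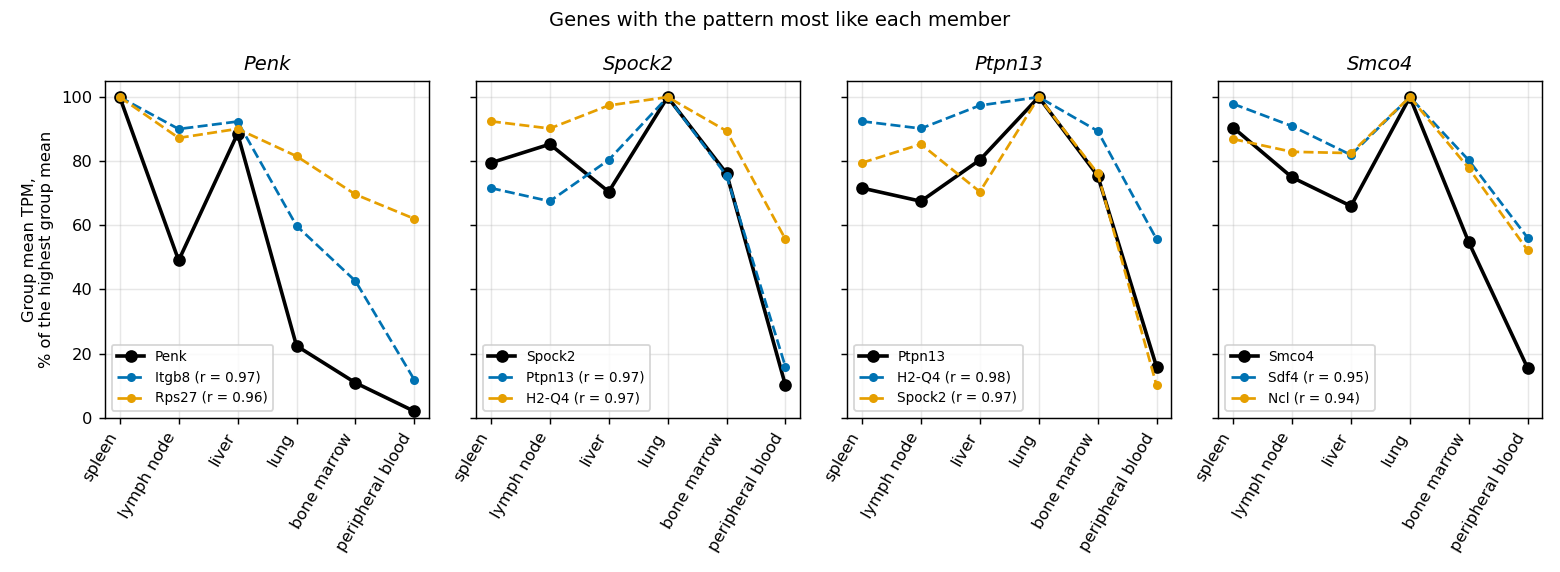
Group mean TPM as a percent of the highest group mean for each member (black) and the 2 genes with the highest Pearson correlation over the 18 libraries (dashed). All genes plotted are lowest in blood, and over the organ libraries alone the correlation is 0.948 for Itgb8 with Penk, 0.407 for Ptpn13 with Spock2, 0.644 for H2-Q4 with Ptpn13 and 0.707 for Sdf4 with Smco4.

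The genes around the members in their pathways were read from 11 lists with 97 genes, of which 72 were high enough to test, and they showed no common fall in blood. Counts of higher and lower in blood were 23 and 11 against spleen, 20 and 15 against lymph node, 25 and 20 against liver, 26 and 18 against lung and 17 and 16 against bone marrow. The shares called in either direction were 47.2%, 48.6%, 62.5%, 61.1% and 45.8%, beside 35.4%, 37.4%, 39.4%, 43.7% and 31.8% of all genes. With scaling to the T cell genes, which moved the median of all genes up by 0.72, 0.89, 0.81, 0.56 and 0.38 on the log2 scale in these contrasts, the counts were 53 and 2, 53 and 3, 49 and 9, 34 and 10, and 28 and 12. More genes were higher than lower in each contrast on both scales, by counts that moved with the scale. The values of single genes below are on the TPM scale, with genes named where scaling turned their direction. Blood was shared by all 5 contrasts, so these are not independent of each other.

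The partners of proenkephalin were mixed in blood, and many were at or near 0 TPM in all sites. None of the 4 opioid receptor genes was high enough to test: Oprk1 was at 0 in every library, Oprd1 reached a group mean of at most 0.0467 TPM, Oprm1 at most 0.21 TPM and Oprl1 at most 0.74 TPM. Of the other opioid precursors, Pdyn was at 0, Pnoc reached at most 0.19 TPM, and Pomc ran from 0.3067 TPM in blood to 2.37 TPM in bone marrow with no call in any contrast (lowest adjusted p 0.051, against bone marrow). Of the 8 propeptide processing genes, 6 were tested, of which 1 to 3 were called higher and 0 to 2 lower in a contrast, with medians from -0.08 to 0.53 beside medians of -0.15 to 0.12 for all genes. Pcsk1, a proprotein convertase of neuroendocrine cells, is below the level set for naming and was added after its values were seen, being the propeptide processing gene lower in blood in more than 1 contrast. It was at 0.62 ± 0.243 TPM in blood, lower than in liver by 1.11 (adjusted p = 0.00141) and than in lung by 0.76 (adjusted p = 0.0163). Cpd, a carboxypeptidase that trims cut propeptides in the secretory pathway, was higher in blood than in all 5 organs, at 38.81 ± 2.35 TPM against 3.837 to 18.56 TPM. Furin, a proprotein convertase, was at 63.05 ± 4.85 TPM in blood and was higher there than in 4 organs. It was lower than in lung by 0.41 (adjusted p = 0.00423), a direction that turned with scaling to the T cell genes (0.25).

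Of the 5 enkephalin-degrading peptidases, 4 were tested. Ace, the angiotensin-converting enzyme, was at 77.63 ± 1.48 TPM in blood (SD, n = 3) and at 0.06333 to 7.853 TPM in the organs, and was called higher against all 5, with differences from 3.18 to 6.21. Npepps, a cytosolic aminopeptidase, was higher in blood only against lung, by 0.80 (adjusted p = 0.00397). Dpp3, a cytosolic dipeptidyl peptidase, was at 40.41 ± 4.8 TPM in blood and lower there than in spleen, lymph node and bone marrow by 0.44, 0.53 and 0.51. These 3 calls depended on the setting. With scaling to the T cell genes the differences from spleen and lymph node turned to 0.42 and 0.57 and the call against bone marrow was lost (adjusted p = 0.848). With TMM scaling the call against lymph node was lost (adjusted p = 0.054), and the call against spleen was lost without the third spleen or the first blood library, with adjusted p of 0.0539 to 0.0655. Myeloid RNA was abundant in blood, as given above, and its part in the Ace and Cpd levels was not tested.

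In the SPARC family, Spock1 was seen at 0.2233 TPM in liver only and Spock3 was at 0 in every library, so Spock2 was the one testican gene at a measurable level. Of the 7 other family genes 2 were tested. Sparc, a matricellular protein of stromal cells, was listed at 0 in all blood libraries and at 9.75 ± 0.931 TPM in bone marrow, 3.787 ± 1.32 in liver and 1.103 ± 0.981 in lung. It was called lower in blood against these 3 organs, and its call against lung (adjusted p = 0.0424) was lost on leaving out any 1 of 11 libraries, with adjusted p up to 0.194, with a pseudocount of 5, with no filter and with only the groups compared. Of the 11 matrix metalloproteinases and inhibitors, which testicans are known to interact with, 6 were tested. Mmp9, a gelatinase of neutrophils, was at 362.6 ± 10.1 TPM in blood and 369.7 ± 6.29 TPM in bone marrow, against 4.093 to 14.26 TPM in the other organs, the 2 sites with the highest myeloid marker sums. Mmp14, a membrane-bound metalloproteinase, was lower in blood (0.7033 ± 0.0643 TPM) than in spleen, lymph node, liver and bone marrow (3.203 to 7.42 TPM). Its call against spleen (-1.29, adjusted p = 0.0273) was lost without the second or the third spleen library or any 1 blood library, with adjusted p from 0.0608 to 0.0759, with a pseudocount of 5 (adjusted p = 0.0562) and with scaling to the T cell genes (adjusted p = 0.113). Timp2, an inhibitor, was higher in blood than in lung by 0.91 (adjusted p = 0.0007), and Timp3 was lower than in liver by 2.75 (adjusted p = 4.41e-06).

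All 18 genes of glycosaminoglycan chain synthesis were tested, and 5 to 11 were called higher and 1 to 4 lower in blood in a contrast. Chst11, a chondroitin sulfotransferase, was at 10.35 ± 0.319 TPM in blood against 1.413 to 6.517 TPM in the organs. Csgalnact2, which starts chondroitin chains, was at 44.04 ± 4.2 TPM against 9.853 to 22.82 TPM. Both were called higher against all 5 organs, and the Chst11 call against bone marrow (0.59) was lost without the second bone marrow library (0.57, adjusted p = 0.0506) and with a pseudocount of 0.1 (adjusted p = 0.0615). Chpf, a chondroitin polymerising factor, went the other way at 7.817 ± 1.29 TPM against 12.25 to 17.55 TPM, with calls against all 5 organs, although against liver its difference turned from -0.59 to 0.29 with scaling to the T cell genes. The call against liver was also lost with only the groups compared (adjusted p = 0.0803). Scaling to the T cell genes also ended 3 Chpf calls, against lung (adjusted p = 0.306), against spleen (adjusted p = 0.518) and against lymph node (adjusted p = 0.946). Xylt2, which starts the chains on core proteins, was higher in blood than in lung by 1.86 (adjusted p = 2.08e-07) and lower than in lymph node by 0.80 (adjusted p = 0.00143), the latter turning to 0.28 with that scaling.

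Of 11 other proteoglycan core proteins 10 were tested, with 2 to 4 higher and 1 to 5 lower in blood in a contrast. Sdc3, a syndecan, was at 32.86 ± 0.839 TPM in blood against 4.103 to 6.35 TPM, and Vcan, which encodes versican, at 10.31 ± 2.07 TPM against 0.03 to 0.9567 TPM. Both were higher against all 5 organs. Sdc4, another syndecan, was lower against all 5, at 11.33 ± 1.48 TPM against 17.99 to 39.83 TPM, although its differences from lymph node and lung turned to 0.22 and 0.02 with scaling to the T cell genes, which also ended its calls against spleen (adjusted p = 0.764) and liver (adjusted p = 0.647). The Sdc4 call against lung was also lost with only the groups compared (adjusted p = 0.0628). Bgn, which encodes biglycan, was listed at 0 in all blood libraries and called lower against liver (8.787 ± 6.66 TPM) and bone marrow (2.343 ± 0.6 TPM), the latter not with a pseudocount of 5 (adjusted p = 0.131).

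Of the 16 other non-receptor tyrosine phosphatases 14 were tested, with 2 to 5 higher and 4 to 7 lower in blood in a contrast and medians from -0.52 to -0.10. Ptpn5, a phosphatase best known from neurons, was lower in blood against all 5 organs, at 0.2333 ± 0.246 TPM against 2.01 to 12.69 TPM, with differences of -3.31 from spleen, -2.48 from lymph node, -2.25 from liver, -2.23 from lung and -1.26 from bone marrow. The call against bone marrow (adjusted p = 0.0334) was lost without the first or the third library of either bone marrow or blood, with adjusted p from 0.0521 to 0.141, with a pseudocount of 5 (adjusted p = 0.283) and with no filter (adjusted p = 0.0517). Ptpn22, which restrains T cell receptor signalling, was at 92.04 ± 8.28 TPM in blood against 113.5 to 395.2 TPM, with calls against all 5 organs that turned to 0.35, 0.46 and 0.17 against spleen, lymph node and bone marrow with scaling to the T cell genes, where the call against liver was lost (adjusted p = 0.223). Its call against bone marrow (-0.30, adjusted p = 0.0179) was also lost without the first or the third bone marrow library or the second or the third blood library, with adjusted p from 0.0625 to 0.0815, and with TMM scaling (adjusted p = 0.198). Ptpn6, the phosphatase SHP-1 of blood cells, was higher in blood at 374.0 ± 5.78 TPM against 45.46 to 254.9 TPM, and Ptpn12 at 98.75 ± 3.09 TPM against 21.86 to 35.21 TPM. Both were called against all 5 organs, but the Ptpn6 call against spleen (0.55, adjusted p = 0.0269) was lost on leaving out any 1 spleen or blood library, with adjusted p from 0.0546 to 0.0727, and with abundant gene classes left out (adjusted p = 0.119).

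All 11 genes listed as binding partners or substrates of Ptpn13 were tested, with 1 to 3 higher and 1 to 4 lower in blood in a contrast. Fas, the death receptor on this list, was at 62.58 ± 8.57 TPM in blood against 29.24 to 44.45 TPM in the organs, higher against all 5. Its calls against spleen and lymph node were lost without the first blood library (0.35, adjusted p = 0.0704 and 0.40, adjusted p = 0.057), and the first also without the second spleen library (0.39, adjusted p = 0.0704) and with abundant gene classes left out (adjusted p = 0.0773). Nfkbia, the inhibitor of NF-kB, was at 222.2 ± 3.91 TPM in blood against 251.5 to 881.3 TPM, lower against all 5, although against spleen and lymph node it turned to 0.47 and 0.94 with scaling to the T cell genes and against lymph node to 0.01 with TMM scaling. Its small difference from lymph node (-0.18, adjusted p = 0.0185) was lost without the first or second lymph node or the second blood library, with adjusted p from 0.0523 to 0.0729. Stat6, a factor of interleukin signalling, was higher against 4 organs, and against bone marrow (0.26, adjusted p = 0.0449) the call was lost on leaving out any 1 of 10 libraries, with adjusted p up to 0.15, with no filter and with the replicate block (adjusted p = 0.0557). Stat4, of the same family, was lower against 4 organs, with its largest difference against lung (-2.20, adjusted p = 2.64e-11), and turned to 0.43, 0.29 and 0.01 against spleen, liver and bone marrow with scaling to the T cell genes. Of the other Smco genes, Smco1 and Smco2 were at 0 and Smco3 reached at most 0.3367 TPM as a group mean, so Smco4 was the one Smco gene at a measurable level.

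**Figure D5:**
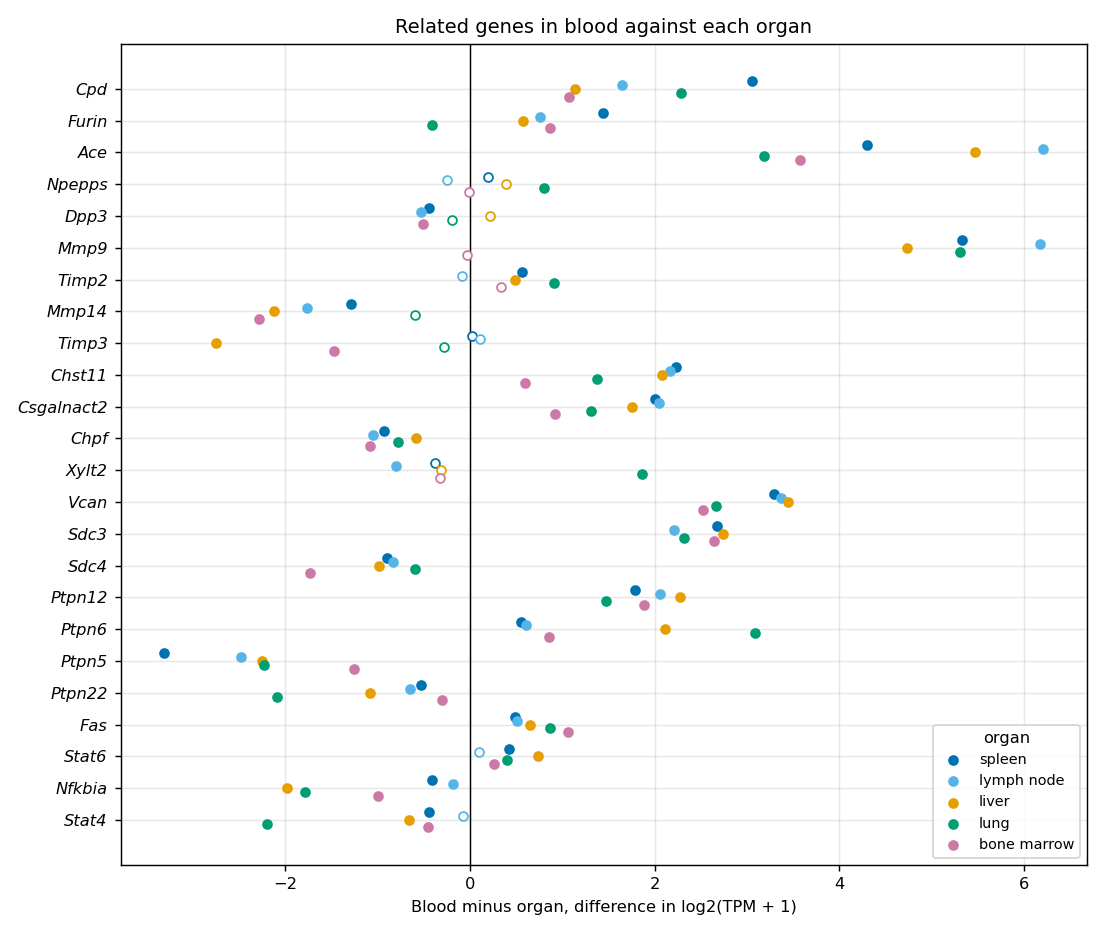
Difference in log2(TPM + 1) of blood from each organ for the named genes of the related lists that were above 0 in blood, coloured by organ, with filled points at an adjusted p under 0.05. Points lie on both sides of zero, from 6.21 for Ace against lymph node to -3.31 for Ptpn5 against spleen.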

How the data were processed

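The deposited tables hold TPM per gene for each of 18 libraries of poly(A) RNA. Per the submitters' processing notes, the authors used STAR, RSEM and mm10, and their versions are not given in the sources used here. TPM keeps no depth, so no count test was run, and the worth of 1 read per kilobase was taken from the steps between low values. The 16694 genes whose group mean reached 1 TPM somewhere entered limma 3.58.1 in R 4.3.3 on log2(TPM + 1), with trended, robust variance, all libraries and group means, and Benjamini-Hochberg adjustment in each contrast. Gene names came from GENCODE M21, which named 55141 of 55487 genes.

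The 4 members and the gene lists were chosen with earlier results of these data known. Blood contrasts of the members therefore carry no test. From each list, up to 2 genes per direction were named, those called in the most blood contrasts among genes reaching 5 TPM in a group. For each member, the 3 genes most correlated with it over the libraries were named, except 1 that is not reported here. On simulated data of the same size, 100 genes of 16694 were shifted by 2 and 100 by 1 on the log2 scale, in liver only. The F test recovered 84.0% and 47.0% of these. Far fewer genes were shifted there than were called in the data, so these rates need not hold for the data. The 28 alternatives covered the pseudocount, filter, scaling, library weights, samples in the fit, replicate block and leaving out each library. TMM factors (trimmed mean of M values) were computed on the TPM table.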

Additional observations from a re-analysis of the deposited data

How the results depend on the processing

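The F test among organs called 3 of the 4 members, and 3 to 4 under the 28 alternatives. Spock2 was the gene that joined, at an adjusted p of 0.0437 with a pseudocount of 5, 0.00102 with scaling to the T cell genes, 0.0315 with abundant gene classes left out, 0.0166 with TMM scaling and 0.0276 without the second lung library. The 17 calls over organ pairs became 25 with scaling to the T cell genes (14 shared), 22 with TMM scaling and 15 with library weights, and ran from 15 to 18 when 1 library was left out. No called member pair turned direction under any alternative. Every member remained lower in blood in each alternative, the closest being -0.85 for Ptpn13 against lymph node with scaling to the T cell genes. The choice used these blood values and required libraries that do not overlap. This direction was thus largely set in advance and is a description.

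Counts of related genes called moved with the scale. With scaling to the T cell genes they were 55 against spleen (34 as reported) and 56 against lymph node (35), and against bone marrow they were 53 with library weights and 50 with only the groups compared (33). Leaving out 1 library gave 27 to 36 against spleen, 29 to 38 against lymph node, 37 to 46 against liver, 39 to 46 against lung and 28 to 38 against bone marrow. Differences of blood that turned with scaling to the T cell genes were those of Furin (lung 0.25), Dpp3 (spleen 0.42, lymph node 0.57), Chpf (liver 0.29), Xylt2 (lymph node 0.28), Sdc4 (lymph node 0.22, lung 0.02), Ptpn22 (spleen 0.35, lymph node 0.46, bone marrow 0.17), Nfkbia (spleen 0.47, lymph node 0.94) and Stat4 (spleen 0.43, liver 0.29, bone marrow 0.01). With TMM scaling Nfkbia turned to 0.01 against lymph node. Scaling to the T cell genes moved the median of all genes by up to 0.89 in a blood contrast.

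Over all genes, scaling to the T cell genes gave 1562 calls for spleen and lymph node (2390 as reported), 7457 for spleen and bone marrow (4031), 7987 for lymph node and bone marrow (3764), 9093 for liver and bone marrow (5759), and 9722, 9998 and 11449 for blood against spleen, lymph node and liver (5912, 6249 and 6580). Of the calls against blood it made 95.2%, 96.7%, 93.4%, 87.9% and 78.4% higher in blood for spleen, lymph node, liver, lung and bone marrow, beside 56.9%, 43.9%, 59.1%, 60.5% and 41.0%. TMM scaling made it 59.9% for lymph node and 53.9% for bone marrow, and leaving out abundant classes made it 46.0% for spleen. Library weights gave 4400 for spleen and lymph node, 3035 for spleen and liver (5219), 7766 for lymph node and bone marrow, 2760 for liver and lung (5818), 10167 for blood and lymph node and 8930 for blood and bone marrow (5308). With only the groups compared, blood against lymph node and bone marrow gave 9623 and 8478. Without the third lymph node library, spleen and lymph node gave 1567. The cause of these shifts was not tested.

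With the replicate number as a block, the 17 member calls over organ pairs remained and the F test called 3 members, while the call of Stat6 against bone marrow was lost (adjusted p = 0.0557). Same-numbered libraries showed no shared deviation (mean correlation 0.0062 over 45 pairs, none over 0.1). Whether the numbers mark shared mice or sorts is not known. TPM keeps no depth, and precision for a gene near 1 TPM is lowest in liver, where 1 read per kilobase was worth 0.378 TPM.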
